A study of Mus musculus with 2 samples.

Results

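The genes described here are 7 markers of modulated VSMCs: Ly6a, Ly6c1, Lgals3, Vcam1, Icam1, Cd34 and Clu. They were found by symbol, and all 7 were among the 32285 genes of the count matrix. Their levels were read in primary cultures of VSMCs from the aorta of C57BL/6 mice. A young culture came from mice of 12 weeks and an old culture from mice of 58 to 78 weeks. Another culture was young VSMCs given angiotensin II (AngII, a pressor peptide) at 1e-07 M for 48 h, and the last was old VSMCs transfected with siRNA against Piezo1, a mechanically gated cation channel, at 20 nM by the labels and the methods, while another dose is also stated for the study. Each culture was labelled with 1 of 4 antibody hashtags, and all were mixed and run as 1 droplet library with 3′ counting. The sources used here do not say how many mice stood behind a culture. A non-targeting siRNA is given for the old cells in the study's staining but not explicitly for the sequenced culture.

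The labels and files do not tie hashtag numbers to cultures. The numbers in the study's schematic put young, old, young + AngII and old + siPiezo1 at 1 to 4, without saying that these are hashtag numbers, so each group is called by its tag. Piezo1 gave no check of tag 4, with 86.9 CPM (UMIs scaled to a total of 1000000) in tag 4 and 89.6 CPM in tag 2. The ratio was 0.969 (exact binomial 95% interval 0.874–1.08). The study reports that siPiezo1 lowered Piezo1 in the old cells, both in the sequenced cells and by qRT-PCR. The tags as read here did not show that reduction, and the reason was not tested. Contractile genes in tags 1 and 2 also ran opposite to the study's report for young and old cells, as given below. There was 1 culture per tag, so no difference below has a replicate check and no test was made. Intervals cover counting error only.

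VSMCs can lose contractile proteins and take on synthetic, inflammatory or progenitor-like features, a switch seen after vascular injury and in atherosclerosis. Ly6a encodes Sca-1, a small GPI-anchored surface protein that marks stem and progenitor cells and a minor class of VSMCs in the vessel wall, and Ly6c1 encodes another protein of the same Ly6 family. Lgals3 encodes galectin-3, a lectin of macrophages and modulated VSMCs. Vcam1 and Icam1 encode endothelial-type adhesion receptors that hold leukocytes through integrins. Cd34 encodes a sialomucin of progenitor and endothelial cells, and Clu encodes clusterin, a secreted chaperone.

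In the GRCm38 annotation Ly6a (ENSMUSG00000075602) lies at chr15:74994877-74998031 and Ly6c1 (ENSMUSG00000079018) at chr15:75044018-75048830, both on the minus strand of the same cluster of Ly6 genes. The gene Clu (ENSMUSG00000022037) lies at chr14:65968483-65981547 and Lgals3 (ENSMUSG00000050335) at chr14:47367751-47386160, both on the plus strand. On the minus strand Vcam1 (ENSMUSG00000027962) lies at chr3:116109949-116129688. On the plus strand Icam1 (ENSMUSG00000037405) lies at chr9:21015985-21028817 and Cd34 (ENSMUSG00000016494) at chr1:194938819-194961279. Because counting was from the 3′ end, near-identical 3′ ends could share reads. Of 451 windows of 50 bases in the last 500 bases of its longest coding transcript, Ly6a shared 20 (4.43%) with I830127L07Rik or Ly6c2, and Ly6c1 shared 90 (20%) with Ly6c2. Levels of this pair are uncertain to that extent. The other 5 genes shared none.

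Promoters of 3 of the genes are shown because they hold, or lack, the motifs of interferon and NF-kB signalling, whose target genes are described beside Ly6a and Icam1 below. Each runs from 250 bases before to 50 bases after a RefSeq start site (GRCm38.p6), 5′ to 3′ on the gene's strand, and capitals mark a motif match. The Ly6c1 promoter is at chr15:75048788-75049087 on the minus strand, that of Icam1 at chr9:21015690-21015989 on the plus strand, and that of Lgals3 at chr14:47373610-47373909 on the plus strand, inside the longer annotated gene.
Ly6c1: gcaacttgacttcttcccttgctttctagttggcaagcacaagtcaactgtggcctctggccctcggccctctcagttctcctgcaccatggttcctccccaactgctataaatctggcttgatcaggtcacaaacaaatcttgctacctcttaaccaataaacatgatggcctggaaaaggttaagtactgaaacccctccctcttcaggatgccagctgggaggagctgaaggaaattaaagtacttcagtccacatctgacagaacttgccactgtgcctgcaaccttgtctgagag
Icam1: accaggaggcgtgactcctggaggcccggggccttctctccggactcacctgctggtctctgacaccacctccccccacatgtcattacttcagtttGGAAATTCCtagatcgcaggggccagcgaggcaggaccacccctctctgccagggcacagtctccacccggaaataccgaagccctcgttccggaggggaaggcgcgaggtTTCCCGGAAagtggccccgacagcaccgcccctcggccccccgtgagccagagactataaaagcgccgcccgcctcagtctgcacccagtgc
Lgals3: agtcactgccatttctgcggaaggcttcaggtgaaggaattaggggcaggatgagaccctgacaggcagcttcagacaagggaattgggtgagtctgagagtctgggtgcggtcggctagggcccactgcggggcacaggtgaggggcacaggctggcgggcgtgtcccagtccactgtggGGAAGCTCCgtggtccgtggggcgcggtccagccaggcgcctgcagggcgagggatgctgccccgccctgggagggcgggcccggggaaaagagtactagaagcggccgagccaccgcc

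The letters searched, on both strands, were GAAA and GAAA with any 2 bases between them (core of the interferon-stimulated response element), TTCNNNGAA (gamma-activated site) and GGANNTTCC (kB-type), held by 3.44%, 8.3% and 4.26% of 32851 promoters. Icam1, a classical NF-kB target, held the kB-type match GGAAATTCC and, nearer to its start site, the gamma-activated match TTCCCGGAA, and these did not overlap. Lgals3 held 1 match, GGAAGCTCC, on the reverse strand. The 2 Ly6c1 promoters and the Cd34 promoter held none of the 3. Ly6a, Vcam1 and Clu had no entry. A match is a description of letters, not a site or a cause.

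The library held 13045 cells with at least 2218 gene UMIs (unique molecules) and 200 genes, at a median of 7915 UMIs. Exactly 1 hashtag stood above its cutoff in 6670 cells, which gave 3144, 497, 1500 and 1529 cells in tags 1 to 4 and 24120561, 5577355, 14933669 and 16106402 gene UMIs. No hashtag was above its cutoff in 40.7% of cells, and the median of the cell's own hashtag was only 67 to 364 UMIs in the tagged cells against 10 to 31 in cells with no tag. Y-linked transcripts without Xist were found in 54.1% and 55.5% of cells of tags 1 and 3 but 19.5% and 13.8% of those of tags 2 and 4, so the sex of the donor cells moved with the tag and cannot be told apart from age. Doublet calls covered 19.9% to 23.3% of a tag. The 9 VSMC markers summed to 906, 1709, 1089 and 687 CPM in tags 1 to 4, most of it Tagln and Acta2, while Myh11, the myosin of mature smooth muscle, was at 1.94 to 7.89 CPM. Macrophage markers, of which C1qa was at 0, summed to 6.33 to 11.9 CPM, and endothelial markers, of which Tie1 and Cldn5 were at 0, to 4.49 to 9.04 CPM. Barcodes of 1 to 100 UMIs, which hold mostly free RNA, set the share of free RNA in the cells at no more than 5.26% to 6.16% of UMIs.

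Ly6a and Ly6c1 had the widest ranges of the 7 genes across tags. Ly6a stood at 1944 CPM (95% Poisson interval 1927–1962) in tag 1, at 411 CPM (400.5–421) in tag 3, at 90.0 CPM (85.5–94.8) in tag 4 and at 56.5 CPM (50.4–63.1) in tag 2. The order was tag 1, tag 3, tag 4, tag 2, with no overlap of neighbouring intervals, and the highest tag was 34.4-fold above the lowest. In tags 2 and 4 free RNA alone could give at most 28.6 and 27.0 CPM of Ly6a, because barcodes near empty carried 492 CPM of it. The bound was the lowest ratio of tag level to near-empty level over 1732 genes with at least 200 UMIs in those barcodes. AY036118 set it. Ly6a was among the genes searched, so its level could not fall below the bound. From the lowest ratio up it ranked 7 in tag 2 and 11 in tag 4. Whether the cells of these tags held Ly6a beyond free RNA was not tested. Adventitial fibroblasts also express Ly6a and Cd34, and the 6 markers of these cells summed to 77.2, 37.5, 52.6 and 67.0 CPM in tags 1 to 4, nearly all of it Pdgfra and Dpt, with Pi16 at 0.179 to 0.415 CPM. Their part in the Ly6a levels was not tested.

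**Figure D1:**
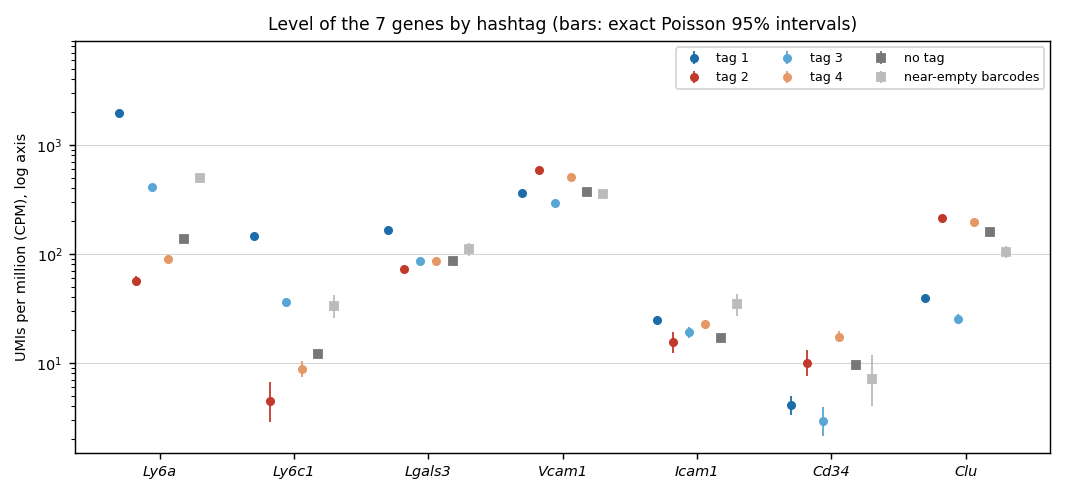
Level of each of the 7 genes in CPM (log axis) in the 4 tags, in cells with no tag and in barcodes of 1 to 100 UMIs, as points with exact Poisson 95% intervals. Ly6a runs from 56.5 CPM in tag 2 to 1944 CPM in tag 1, while Vcam1 and Clu are lowest in tag 3.

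Ly6c1 followed the same order at a lower level. It stood at 147 CPM (142–152) in tag 1, 35.8 CPM (32.9–39.0) in tag 3, 8.82 CPM (7.43–10.4) in tag 4 and 4.48 CPM (2.901–6.62) in tag 2, a range of 32.8-fold. The number of Ly6a UMIs per Ly6c1 UMI was 13.2 (12.8–13.7), 12.6 (8.38–19.8), 11.5 (10.5–12.5) and 10.2 (8.59–12.2) in tags 1 to 4 and 14.7 (11.6–19.0) in near-empty barcodes. This ratio thus varied far less than either level, and only between tag 1 and tags 3 and 4 were the intervals apart.

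Lgals3 was highest in tag 1 and close to equal in the others. Its level was 164 CPM (159–169) in tag 1, 72.1 CPM (65.2–79.5) in tag 2, 85.9 CPM (81.3–90.7) in tag 3 and 85.9 CPM (81.4–90.5) in tag 4. Tags 3 and 4 could not be told apart, and tag 2 lay below both.

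Vcam1 was highest where Ly6a was lowest. It stood in tag 2 at 586 CPM (566–607), then tag 4 at 503 CPM (492–514), tag 1 at 358 CPM (351–366) and tag 3 at 295 CPM (286–304), with no overlap between neighbours. The range was only 1.99-fold. Icam1, the other adhesion receptor, ranged 1.61-fold, from 24.8 CPM (22.8–26.9) in tag 1 through 22.5 CPM (20.3–25.0) in tag 4 and 19.2 CPM (17.0–21.5) in tag 3 to 15.4 CPM (12.3–19.0) in tag 2. Each neighbour in that order overlapped the next, and the near-empty barcodes, at 34.4 CPM, were above all 4 tags.

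Clu and Cd34 were higher in tags 2 and 4 than in tags 1 and 3. Clu stood at 211 CPM (199–223) in tag 2 and 197 CPM (190–204) in tag 4, with overlapping intervals, against 39.7 CPM (37.2–42.3) in tag 1 and 25.4 CPM (23.0–28.1) in tag 3. Cd34 was a rare transcript, at 17.4 CPM (15.4–19.5) in tag 4, 10.0 CPM (7.58–13.0) in tag 2, 4.10 CPM (3.34–5.00) in tag 1 and 2.95 CPM (2.14–3.96) in tag 3. The last pair overlapped, and the 4 levels rested on 280, 56, 99 and 44 UMIs.

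Between tag 2 and tag 1, the comparison that by the schematic is old against young, the 7 genes split. Ly6a was lower in tag 2 with a ratio of 0.0291 (0.0259–0.0325), Ly6c1 with 0.0305 (0.0197–0.0450), Lgals3 with 0.439 (0.395–0.486) and Icam1 with 0.622 (0.490–0.781). Clu was higher with 5.32 (4.88–5.80), Cd34 with 2.45 (1.73–3.43) and Vcam1 with 1.64 (1.57–1.70). Thus 4 of 7 genes were at least 1.5-fold lower, beside 12.8% of 11112 genes with at least 100 UMIs in the pair of tags, and 3 of 7 at least 1.5-fold higher, beside 9.22%. The median log2 ratio of the 7 was -0.69, against 0.02 over all genes tested. The sex of the cells moved with this comparison. Within cells that carried Xist and no Y-linked transcripts, Ly6a was at 756 CPM in tag 1 and 54.3 CPM in tag 2. Within cells with Y-linked transcripts only it was at 2063 and 62.0 CPM, the same direction. A class needed only 1 UMI, and the Xist cells of tag 1 were 4.90% of that tag. Mis-tagged cells and free RNA in these classes were not tested, so the classes are not known to be matched for sex. Cd34 in the Xist cells was at 11.6 CPM in tag 1 and 10.6 CPM in tag 2, and its ratio turned to 0.913. Clu, at 122 CPM in the 154 Xist cells of tag 1 and 223 CPM in the 313 of tag 2, had a ratio of 1.83 there, against 7.61 in cells with Y-linked transcripts only, where it stood at 20.1 and 153 CPM.

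**Figure D2:**
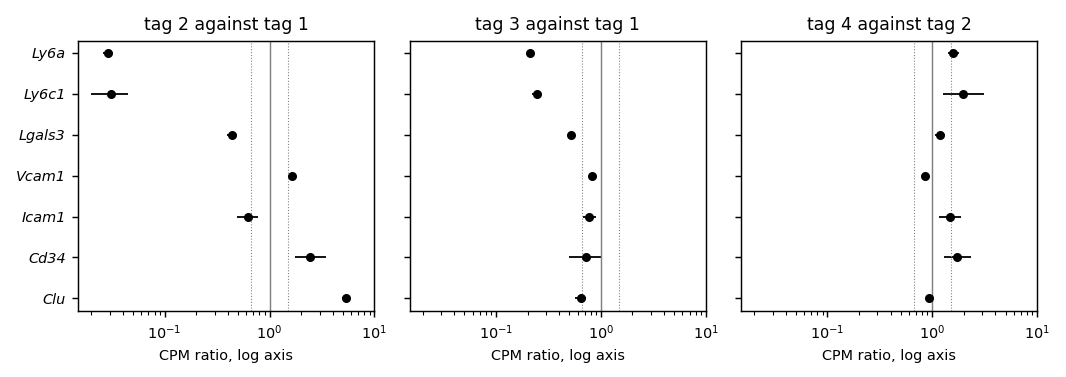
Ratio of CPM (log axis) of each gene in the 3 tag comparisons, with exact binomial 95% intervals; the solid line is 1 and the dotted lines are 1.5-fold. Ly6a and Ly6c1 lie at 0.0291 and 0.0305 for tag 2 against tag 1, and Vcam1 and Clu lie below 1 for tag 4 against tag 2.

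Tag 3 against tag 1, young VSMCs with and without AngII by the schematic, gave no higher member. All 7 ratios were below 1 in the cells as tagged. With cells outside 2% to 20% mitochondrial UMIs left out, Cd34 had 1.69 and Clu 1.15. That setting kept only 447 of 3144 cells of tag 1 and 127 of 1500 of tag 3. Without dividing cells Icam1 had 1.04. Ly6a had 0.211 (0.206–0.217), Ly6c1 0.243 (0.222–0.267), Lgals3 0.523 (0.491–0.557) and Clu 0.641 (0.568–0.723). Vcam1 had 0.823 (0.793–0.853), Icam1 0.772 (0.669–0.891) and Cd34 0.718 (0.491–1.03), whose interval held 1. At least 1.5-fold lower were 4 of 7 genes, beside 10.4% of 11623 genes tested, and at least 1.5-fold higher were 0 of 7, beside 8.03%. The median log2 ratio was -0.64, against 0.03 over all genes.

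Tag 4 against tag 2, old VSMCs with and without siPiezo1 by the schematic, had ratios within 2-fold of 1. Cd34 was higher in tag 4 with 1.73 (1.30–2.35), Ly6c1 with 1.97 (1.28–3.14, on 142 and 25 UMIs) and Ly6a with 1.59 (1.41–1.81). Icam1 had 1.46 (1.15–1.87), Lgals3 1.19 (1.07–1.33), Clu 0.932 (0.871–0.997) and Vcam1 0.858 (0.824–0.894). The direction of the last 2 was not stable: in Y-only cells Clu had 1.23 and Vcam1 1.17, and with a stricter margin between hashtags Vcam1 had 1.001. At least 1.5-fold higher were 3 of 7 genes, beside 3.11% of 10402 genes tested, and at least 1.5-fold lower were 0 of 7, beside 1.36%. The median log2 ratio was 0.55, against 0.03 over all genes. With hashtag cutoffs raised 1.5 times, no member was past 1.5-fold and Ly6c1 had a ratio of 0.963. Tags 2 and 1 serve in more than 1 of these comparisons, so their ratios are not independent.

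Whether the differences lay in many cells or in a few was read in cells thinned to 5000 UMIs, since cells of tag 1 were the shallowest. Cells under 5000 UMIs were left out. These were 747 of 3144, 21 of 497, 136 of 1500 and 114 of 1529 cells in tags 1 to 4. Thinned shares are thus of the deeper cells, and the loss was uneven between tags. Of the cells kept, at least 1 Ly6a UMI was found in 91.5% of tag 1, 20.8% of tag 2, 67.2% of tag 3 and 26.9% of tag 4. By the same bound, free RNA alone could give at most 14.1%, 13.3%, 12.1% and 12.6%. The same shares without thinning were 93.3%, 32.0%, 76.5% and 40.2%. At least 5 UMIs were found in 69.2%, 0.21%, 16.1% and 1.06% of cells, and at least 10 in 44.3% of tag 1 and 2.05% of tag 3. The thinned median was 8 UMIs a cell in tag 1 and 1 in tag 3, with a highest cell of 51 and 18. Ly6a was thus found in most cells of tags 1 and 3, at different numbers a cell.

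Ly6c1 was found in 33.8%, 2.31%, 14.5% and 3.82% of thinned cells of tags 1 to 4, and Lgals3 in 46.1%, 27.1%, 27.9% and 31.4%. Without thinning the Lgals3 shares were 57.0%, 45.5%, 40.2% and 49.0%, so that tag 3, not tag 2, was then the lowest. Vcam1 was found in most cells of every tag: 73.6%, 83.2%, 65.0% and 78.7% of thinned cells. At least 5 Vcam1 UMIs were found in 7.47%, 21.0%, 4.69% and 17.9%.

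**Figure D3:**
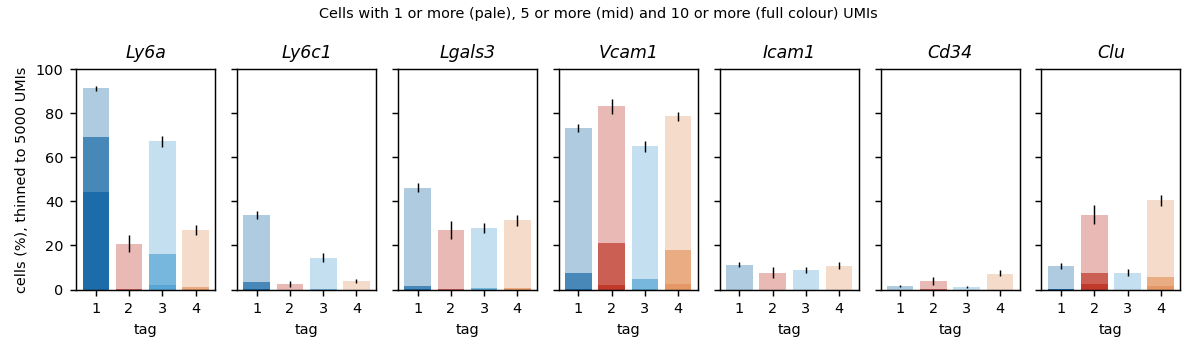
Share of cells (%) with at least 1 (pale), 5 (mid) and 10 (full colour) UMIs of each gene in cells of tags 1 to 4 thinned to 5000 UMIs, with exact binomial 95% intervals on the pale bars. Ly6a reaches 91.5% of tag 1 and 20.8% of tag 2 cells, and Vcam1 at least 65.0% of each tag.

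Clu was found in 34.0% of thinned tag 2 cells and 40.5% of tag 4 cells, against 10.8% of tag 1 and 7.70% of tag 3. A minority of cells carried much of it: 7.35% of tag 2 and 5.72% of tag 4 had at least 5 UMIs, with up to 27 in a cell of tag 1, 25 in tag 2 and 20 in tag 4 but only 4 in tag 3. Icam1 was found in 11.3%, 7.56%, 8.80% and 10.7% of thinned cells, and Cd34 in 1.42%, 3.78%, 1.10% and 7.28%. The Cd34 shares of tags 2 and 4 rested on 18 of 476 and 103 of 1415 cells.

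Most cells with Ly6c1 of tags 1 and 3 also had Ly6a, whereas most of those of tags 2 and 4 did not. In tag 1, 796 of 809 thinned cells with Ly6c1 also had Ly6a, in tag 3 168 of 198, in tag 4 22 of 54 and in tag 2 only 4 of 11. In tags 1 to 4 this was 1.08, 1.75, 1.26 and 1.52 times the number that the separate shares would give. The contrast between tags thus goes with the share of all thinned cells that had Ly6a, at 91.5%, 20.8%, 67.2% and 26.9%. In the other direction, 36.3% of tag 1 cells with Ly6a had Ly6c1. Vcam1 with Clu, by contrast, was found at 1.03, 1.03, 1.01 and 1.002 times that number, and Ly6a with Vcam1 at 0.996, 0.996, 1.02 and 0.999. Ly6a with Cd34 reached 1.45 times in tag 4 (40 cells), and Ly6a with Clu 1.34 times in tag 2 (45 cells) but 0.793 times in tag 3 (56 cells). Depth after thinning was equal, but these cells still share 1 library and its free RNA, whose part was not tested.

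Acta2, smooth muscle actin, was used to split each tag into cells with at least 1 Acta2 UMI and cells with none. Positive were 1538 of 3144 cells in tag 1 (48.9%), 271 of 497 in tag 2 (54.5%), 803 of 1500 in tag 3 (53.5%) and 514 of 1529 in tag 4 (33.6%). Positive cells were deeper, with a median of 7581 against 6305 UMIs in tag 1 and 11970 against 8933 in tag 4. Thinned to 5000 UMIs, 42.5%, 43.1%, 44.9% and 24.3% of cells of tags 1 to 4 had an Acta2 UMI, and free RNA alone could give one in up to 11.4%, 10.8%, 9.83% and 10.2%. Acta2 as a whole stood at 378, 568, 294 and 174 CPM in tags 1 to 4.

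Among members with at least 100 UMIs, Clu had the highest ratio between these classes in tags 2 and 4, in tag 4 with an interval that overlapped those of Cd34 and Icam1. In tag 2 it stood at 329 CPM (306–353) in Acta2-negative and 130 CPM (118–143) in Acta2-positive cells, a ratio of 2.52 (2.24–2.85). In tag 4 the levels were 235 CPM (225–244) and 140 CPM (131–149), a ratio of 1.68 (1.55–1.81). In tag 1 the ratio was 1.17 (1.02–1.33), and in tag 3 it was 0.911 (0.737–1.12), which became 2.44 without doublet calls. With Acta2 counted in steps in thinned cells, Clu in tag 4 stood at 240, 186, 97.9 and 36.4 CPM in cells with 0, 1 to 2, 3 to 9 and at least 10 Acta2 UMIs, although the last step held 22 cells. In tag 2 the same steps gave 314, 196, 67.7 and 103 CPM, the last on 37 cells.

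Ly6a was higher in Acta2-negative cells of tags 1 and 3, by less than 1.5-fold with positive cells called at 1 UMI. In tag 1 it stood at 2236 CPM (2209–2264) against 1694 CPM (1672–1716), a ratio of 1.32 (1.30–1.34), and in tag 3 at 465 CPM (448–482) against 370.4 CPM (358–384), a ratio of 1.25 (1.19–1.32). The ratios of tag 2, 1.04 (0.826–1.31), and tag 4, 1.10 (0.984–1.22), had intervals that held 1. This split of the tags was not stable. Without doublet calls the ratios were 1.22, 0.934, 1.17 and 1.26 in tags 1 to 4. In thinned cells they were 1.23, 1.03, 1.16 and 1.24, and with positive cells called at 3 UMIs 1.57, 1.54, 1.33 and 1.21. Over the Acta2 steps Ly6a in tag 1 stood at 2168, 1931, 1557 and 1382 CPM, so cells with at least 10 Acta2 UMIs were still above the 411 CPM of tag 3 as a whole. Ly6c1 had ratios of 1.45 (1.36–1.55) in tag 1 and 1.17 (0.985–1.39) in tag 3.

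**Figure D4:**
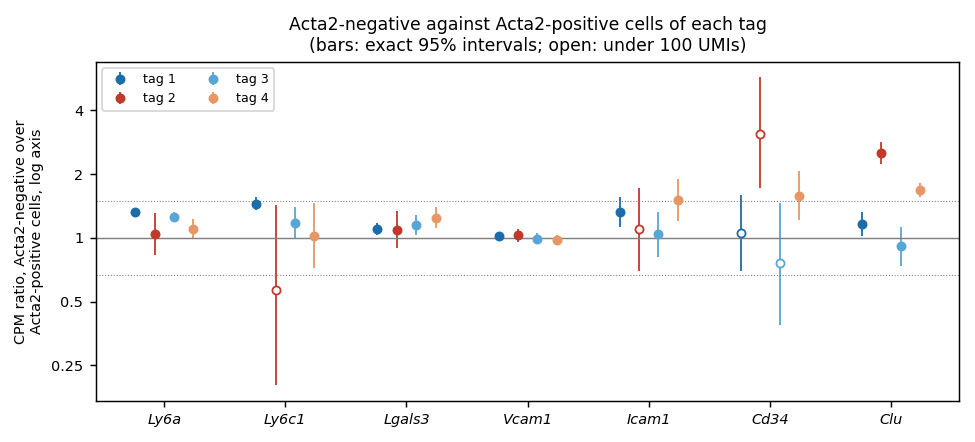
Ratio of CPM (log axis) in Acta2-negative over Acta2-positive cells of each tag, with exact binomial 95% intervals; dotted lines are 1.5-fold and open points rest on under 100 UMIs. Clu in tags 2 and 4 lies at 2.52 and 1.68, and the Vcam1 ratios lie between 0.982 and 1.03.

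Vcam1 had intervals that held 1 in every tag, with ratios of 1.02 (0.978–1.07), 1.03 (0.957–1.10), 0.989 (0.931–1.05) and 0.982 (0.939–1.03) in tags 1 to 4. In other settings these ran from 0.868 (tag 4, positive cells called at 3 UMIs) to 1.10 (tag 1, without doublet calls). Over the Acta2 steps Vcam1 in tag 1 stood at 355, 350, 361 and 245 CPM, the last on 111 cells. From the first to the last step it went from 559 to 562 CPM in tag 2, 289 to 233 CPM in tag 3 and 496 to 491 CPM in tag 4. Lgals3 had 1.10 (1.03–1.17), 1.09 (0.892–1.34), 1.15 (1.03–1.29) and 1.24 (1.11–1.39). Icam1 reached 1.51 (1.20–1.91) in tag 4 and 1.33 (1.13–1.56) in tag 1. Cd34 had 1.58 (1.22–2.07) in tag 4 and, on 56 UMIs, 3.09 (1.72–5.75) in tag 2.

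Few genes were past 1.5-fold between the classes. In tag 1 no member of 6 with at least 100 UMIs was, beside 1.05% of 10627 genes higher and 0.602% lower in Acta2-negative cells. In tag 2 Clu was 1 of 4 higher and none was lower, beside 2.76% and 2.46% of 6551 genes. In tag 3 no member of 6 was, beside 0.722% and 0.669% of 9421 genes. In tag 4 Icam1, Cd34 and Clu were 3 of 7 higher and none was lower, beside 1.79% and 1.76% of 9723 genes. Median log2 ratios of the members were 0.31, 0.09, 0.13 and 0.32 in tags 1 to 4, against 0.01, 0.02, 0.02 and 0.01 over all genes.

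Over 14 clusters of all 13045 cells, 6 of the 7 genes were among those the clusters were built from (Icam1 was not), so the following is a description. Ly6a was highest in cluster 2, at 2500 CPM (2473–2528), a cluster led by the interferon-induced genes Ifit3, Ifit3b and Rsad2, in which tag 1 held 1739 cells and 99.7% of the tagged cells. It was next in cluster 7, at 2265 CPM (2222–2309), led by Cdkn3, Ckap2l and Psmb8, where all 534 tagged cells were tag 1. It was lowest in cluster 6, at 51.4 CPM (46.1–57.1), led by the contractile genes Actg2, Myh11 and Cnn1. Cluster 1, at 59.4 CPM (56.1–62.9), overlapped it. Cluster 6 held 77 and 87 cells of tags 2 and 4 against 15 and 27 of tags 1 and 3. Of the 9 VSMC markers, 8 were above the rest in cluster 6, 7 in cluster 11, 3 in cluster 7 and 2 in cluster 2. Of the 6 adventitial fibroblast markers, all 6 were above the rest in cluster 2. In clusters 7, 11 and 6 these were 2, 3 and 2, and in cluster 0, where Ly6a stood at 64.5 CPM, 4. The part of such cells in the cluster levels was not tested. In cluster 11, led by Apod, Cxcl10 and Ifit3, all 158 tagged cells were tag 1 and Ly6a stood at 1140 CPM (1076–1206). Ly6c1 was highest in cluster 2 and lowest in cluster 6, at 190 CPM (182–197) and 2.99 CPM (1.83–4.62).

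**Figure D5:**
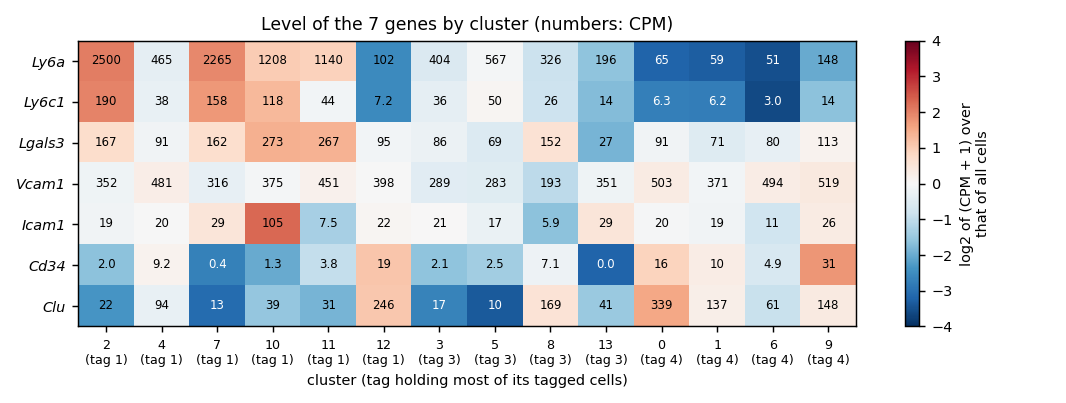
CPM of the 7 genes (rows) in 14 clusters of all cells (columns, by the tag holding most of their tagged cells), printed in the cells and coloured by log2 of CPM + 1 relative to all cells. Ly6a and Ly6c1 are highest in clusters 2 and 7 of tag 1, Icam1 in cluster 10, Cd34 in cluster 9 and Clu in cluster 0.

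Within clusters 0, 3 and 4 Ly6a was still highest in tag 1. Mis-tagged cells and free RNA in these sums were not tested. Within cluster 0 Ly6a stood at 222 CPM in 52 cells of tag 1, 138 in 31 of tag 3, 59.7 in 207 of tag 2 and 59.1 in 529 of tag 4. Within cluster 3, mostly tag 3, it stood at 632 CPM in tag 1, 437 in tag 3 and 175 in tag 4. Within cluster 4 it stood at 938, 76.9, 196 and 121 CPM in tags 1 to 4, but 83.1% of that cluster were doublet calls.

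Clu was highest in cluster 0, at 339 CPM, led by Igfbp5, Nxph1 and Clu itself, and lowest in cluster 5, at 10.4 CPM. Within cluster 0 it stood at 443 CPM in tag 1, 372 in tag 2, 217 in tag 3 and 327 in tag 4, so the few cells of tag 1 placed there were as high as those of tag 2 or higher. Cd34 was highest in cluster 9, at 30.6 CPM, which was 95.6% tag 4 among tagged cells and was led by Lmo7, Klra4 and Tmem132c. The same cluster was highest for Vcam1, at 519 CPM (496–543), although the intervals of clusters 0 and 6 overlapped it.

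Lgals3 was highest in clusters 10 and 11, at 273 CPM (248–300) and 267 CPM (236–299), of which 97.2% and 100% of the tagged cells were tag 1. Cluster 10, led by Olfr655, Adam2 and Gm15286, was also highest for Icam1, at 105 CPM (89.4–122) in 182 cells, with the next cluster at 29.3 CPM (15.6–50.04). Highest to lowest cluster was 48.6-fold for Ly6a, 63.4-fold for Ly6c1, 10.1-fold for Lgals3, 2.69-fold for Vcam1, 17.8-fold for Icam1 and 32.6-fold for Clu. Cd34 had no UMI in cluster 13, whose 88 cells were the fewest.

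The genes most like each member were read from the Pearson correlation of log2(CPM + 1) over 25 sums of a cluster and a tag, which share a library and the clustering. Among genes of at least 50 CPM in all cells, nearest to Ly6a were Ifi211 (r = 0.95), Irf7 (0.94) and Ifi44 (0.93). Ly6c1, at 47.2 CPM and so outside that search, had r = 0.98 with Ly6a. Nearest to Clu were Mdk (0.92), Maml3 (0.92) and Igf2r (0.90), and nearest to Vcam1 were Pde4b (0.90), Spry2 (0.88) and Clu (0.88). Cd34 lay nearest to Ier3 (0.90), Stom and Gja1, Lgals3 to Psme2 (0.82), S100a4 and Psme1, and Icam1, more loosely, to Resf1 (0.72), Marf1 and Tra2b. Ly6a had r = 0.59 with Lgals3, -0.61 with Vcam1, -0.63 with Clu, -0.52 with Cd34 and 0.08 with Acta2.

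Interferon-induced genes, like Ly6a, were highest in tag 1 and next in tag 3. Their sum did not separate tags 4 and 2, where Ly6a had a ratio of 1.59. A list of 13 summed to 5290, 372, 898 and 370 CPM in tags 1 to 4. All 13 were at least 1.5-fold lower in tag 2 than in tag 1 (median log2 ratio -4.45). All 13 were also lower in tag 3 than in tag 1 (-2.905), while in tag 4 against tag 2, 3 of 10 were higher. Beside this list and those below stand the shares over all genes tested. In tag 2 against tag 1, 9.22% were higher and 12.8% lower. In tag 3 against tag 1 the shares were 8.03% and 10.4%, and in tag 4 against tag 2 they were 3.11% and 1.36%. Bst2, which encodes tetherin, stood at 1785, 241, 474 and 220 CPM and Isg15, a ubiquitin-like modifier, at 890, 36.9, 158 and 31.8 CPM. In the 500 cells of tag 1 without an Ifit3 UMI, where the list summed to 2706 CPM, Ly6a stood at 1253 CPM (1217–1291), against 2062 CPM (2042–2082) in the other 2644. Both are above the 400.3 CPM of the 1320 tag 3 cells without Ifit3. The list summed to only 817 CPM in those tag 3 cells, so the classes without Ifit3 were not alike in interferon-induced genes. Lgals3 in the same pair of tag 1 classes stood at 165 and 164 CPM. The part of interferon signalling in these levels was not tested.

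Of 20 genes of the Ly6 family 4 had enough UMIs in tags 2 and 1, with 3 lower and 1 higher in tag 2. Ly6e, an interferon-induced member, stood at 698, 111, 116 and 126 CPM in tags 1 to 4. Cd59a, a complement inhibitor, had the opposite direction, at 7.84, 17.0, 13.0 and 12.0 CPM. In tag 3 against tag 1, 4 of 5 were lower and 1 higher. In tag 4 against tag 2, 3 of 5 were higher, and these were Ly6a, Ly6c1 and Ly6d. Ly6d stood at 9.75 CPM on 157 UMIs in tag 4 and at 0 in tag 2. This was at least 18.1-fold over a floor of 3 UMIs for tag 2. Ly6d was the leading gene of cluster 4, of which 83.1% were doublet calls. The number of cells that carried it was not counted, so its level need not hold for the culture as a whole.

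Among 10 galectins and their partners 9 were in the matrix and 5 had enough UMIs. In tag 2 against tag 1, 4 of 5 were lower and none higher (median log2 ratio -1.19), in tag 3 against tag 1, 3 of 5 lower, and in tag 4 against tag 2, none of 5 past 1.5-fold. Lgals3bp, which encodes a galectin-3-binding glycoprotein, stood at 363, 40.0, 117 and 37.8 CPM and Lgals9 at 170, 30.7, 66.7 and 20.9 CPM. Lgals1, a highly expressed galectin of smooth muscle, stood at 2993, 2894, 2350 and 2753 CPM.

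Of 15 adhesion molecules, Vcam1 and Icam1 included, 8 had enough UMIs, with 3 higher and 2 lower in tag 2 against tag 1, 3 higher and 1 lower in tag 3 against tag 1, and 0 higher and 1 lower in tag 4 against tag 2. Alcam, an immunoglobulin-type receptor, stood at 102, 268, 268 and 253 CPM, and Ncam1, the neural cell adhesion molecule, at 264, 131, 657 and 101 CPM. Of 8 integrin genes of leukocyte receptors 3 could be compared. Itga4, which encodes the alpha chain of the Vcam1 receptor, stood at 5.02, 15.6, 3.21 and 16.2 CPM, higher in the same pair of tags as Vcam1. The others did not follow Vcam1. Itgb1 stood at 729, 643, 956 and 593 CPM and Itga9 at 6.76, 4.84, 16.3 and 6.58 CPM. Both were highest in tag 3, where Vcam1 was lowest. Of 12 NF-kB target genes 11 could be compared, with 0 higher and 5 lower in tag 2 against tag 1, 0 and 1 in tag 3 against tag 1, and 1 and 1 in tag 4 against tag 2. Ccl5, a T-cell chemokine, stood at 709, 12.9, 13.6 and 16.1 CPM, while Cxcl1, a neutrophil chemokine, stood at 397, 128, 425 and 132 CPM.

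Among 3 sialomucins of the Cd34 family Podxl2 stood at 2.99, 4.30, 3.95 and 6.02 CPM. Of 4 receptors that bind clusterin 2 could be compared. Vldlr, at 25.0, 13.3, 12.8 and 18.4 CPM, was the 1 at least 1.5-fold lower in tag 2 and in tag 3 than in tag 1.

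Other genes of the modulated state did not share 1 pattern. Of 15 such genes 12 could be compared in tag 2 against tag 1, with 1 higher and 5 lower (median log2 ratio -0.20). In tag 3 against tag 1, 2 of 12 were higher and 1 lower (-0.22). In tag 4 against tag 2, 3 of 13 were higher and 0 lower (0.20). The counts of 1 of 12 were close to the share over all genes. That share was 9.22% higher in tag 2 against tag 1 and 10.4% lower in tag 3 against tag 1. Spp1, osteopontin, stood at 3418, 8229, 5782 and 9233 CPM, while Timp1, a metalloproteinase inhibitor, stood at 4037, 1945, 5663 and 1893 CPM. Of 10 contractile genes 5 of 8 were higher in tag 2 than in tag 1 and none lower. In tag 3 against tag 1, 1 of 9 was higher and 2 lower. In tag 4 against tag 2, 6 of 8 were lower and none higher. The median log2 ratios were 0.66, -0.14 and -1.15. By qRT-PCR the study reports ACTA2, MYH11 and TAGLN, among others, as lower in old cells. It describes its young sequenced cells as rich in ACTA2, MYL9 and TAGLN. In tags 1 and 2 Acta2 stood at 378 and 568 CPM and Tagln at 415 and 957 CPM. Myl9 stood at 57.3 and 95.2 CPM and Myh11 at 5.27 and 7.89 CPM. By the schematic this is the opposite direction, and the reason was not tested.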

How the data were processed

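The authors made the count matrix, per the file headers with Cell Ranger 4, and the submitters' processing notes name Seurat. Which genome build the reads were aligned to is not given in the sources. The deposited values are UMI counts per gene and hashtag for every barcode, with no filter on cells (2472397 barcodes). A cell had at least 200 genes and at least 2218 gene UMIs (10 times below the depth at percentile 99 among the 10000 deepest barcodes). A tag was given where only its hashtag exceeded its cutoff (36, 52, 61 and 41 UMIs). The cutoffs, the 7 genes and the gene lists were chosen with earlier results of these data known.

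For each tag, UMIs were summed and divided by the total of the tag to give CPM, and the intervals are exact Poisson ones. Ratios have exact binomial intervals and shares Clopper-Pearson intervals, all at 95%. Folds over all genes used genes with at least 100 UMIs in the cells compared and a limit of 1.5-fold. The ratio intervals were tried on simulated independent Poisson counts and held the set ratio for 95.7% to 95.9% of genes, nearly all set at 1. Of 200 genes set at 2-fold, 96% were held in tag 2 against tag 1. The share was 92% in tag 3 against tag 1 and 95.5% in tag 4 against tag 2. Independent Poisson counts are what the intervals assume. They lack the uneven spread of UMIs over cells, so the trial cannot show how the intervals fare with that spread. Named genes were the members, Acta2, at most 4 genes of a list by level or ratio, the 3 nearest by correlation among genes of at least 50 CPM, and the leading genes of clusters. Clusters came from Seurat (version 5.3.0, R 4.3.3) with Louvain resolution 0.8 on 30 components of 2000 variable genes and 20 neighbours. Doublets were called with Scrublet (scanpy 1.11.5) and kept, and are left out in an alternative. Other steps used Python 3.11.15, numpy 2.4.6, scipy 1.17.1 and pandas 2.3.3. Gene positions are from GENCODE vM21. A hashtag with few UMIs, free RNA and doublets can each move cells or transcripts of one culture into another's sums. Alternatives are given in the closing section.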

Additional observations from a re-analysis of the deposited data

Results flagged for a closer look

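Clu in Acta2-negative over Acta2-positive cells had ratios on opposite sides of 1 in different tags. The ratio was 2.52 in tag 2 and 1.68 in tag 4, and 0.911 in tag 3, and the intervals of tags 2 and 4 lay apart from that of tag 3. The difference was not tested, since each tag was 1 culture, and without doublet calls the tag 3 ratio was 2.44.

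Cells with no hashtag above its cutoff, which no comparison used, had more of 3 members than tag 1, the untreated young culture by the schematic. Vcam1 stood at 373 CPM, Cd34 at 9.49 CPM and Clu at 160 CPM (156–164) in these 5307 cells.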

How the results depend on the processing

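The ratios were recomputed in up to 10 other sets of cells or UMIs: a stricter margin between hashtags, raised cutoffs, thinning, no doublets, Y-only or Xist-only cells, free RNA removed, a doubled UMI minimum, a mitochondrial filter and no dividing cells. For tag 2 against tag 1, Ly6a ranged from 0.0145 to 0.0718, Ly6c1 from 0.0151 to 0.0689, Lgals3 from 0.392 to 0.613 and Clu from 1.83 (Xist-only cells) to 7.82 (no doublets), all past 1.5-fold, while Vcam1 ranged from 1.43 to 1.74. For tag 3 against tag 1, Ly6a ranged from 0.166 to 0.264 and Lgals3 from 0.477 to 0.899. For tag 4 against tag 2, Ly6a ranged from 1.31 to 2.25, and 7 of 10 were past 1.5-fold.

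Of the tag ratios 137 stayed within the interval of the value as reported and 68 left it, besides the 5 listed next. Of those past 1.5-fold, 5 turned direction: Cd34 in tag 2 against tag 1 in Xist-only cells (0.913), Icam1 there without dividing cells (1.03), Clu in tag 3 against tag 1 at 2% to 20% mitochondrial UMIs (1.15), and Ly6c1 in tag 4 against tag 2 with cutoffs raised 1.5 times (0.963) and in Y-only cells (0.457). Of those not past 1.5-fold, these also crossed 1: Icam1 in tag 3 against tag 1 without dividing cells (1.04), Cd34 there at 2% to 20% mitochondrial UMIs (1.69), and in tag 4 against tag 2 Vcam1 at the stricter margin (1.001) and in Y-only cells (1.17) and Clu in Y-only cells (1.23). The cause was not tested. Among ratios between the Acta2 classes, 61 stayed within the interval of the value as reported and 31 left it. Of the shares of cells with a UMI, 27 left their interval without thinning and 1 stayed within it.

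Of the counts of members past the limit 43 were within 1.5 times the main count and 10 were not. At a limit of 2-fold, tag 3 against tag 1 had 2 in place of 4, tag 4 against tag 2 had 0 in place of 3, and the Acta2 classes of tag 4 had 0 in place of 3, which follows from the limit. With cutoffs raised 1.5 times, tag 4 against tag 2 had 0. In the Acta2 classes of tag 1 the count was 2 with positive cells called at 3 UMIs and 1 each without doublets, without dividing cells and thinned, in place of 0. It was 2 in place of 1 in tag 2 at 3 UMIs, and 1 in place of 0 in tag 3 without doublets. Under the other clusterings, 11 of 14 ranges over clusters stayed within 1.5 times. Hashtag depth limits tags 2 and 4, of which the stricter margin left 179 of 497 and 482 of 1529 cells. The mitochondrial filter left a minority of each tag, with 447, 216, 127 and 694 cells of tags 1 to 4. No paired analysis was possible because the library holds 1 culture per tag and no replicate numbers.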

Other observations

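The cells with no tag had Ly6a at 137 CPM, Ly6c1 at 12.1 CPM, Lgals3 at 86.0 CPM and Icam1 at 17.0 CPM. Of these cells 29.8% were in cluster 0, where Clu was highest, 26.0% in cluster 1 and 1.92% in cluster 2, where Ly6a was highest, against 55.3% of tag 1 cells in cluster 2. Which cultures they came from is not known.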
